A study of Mus musculus with 9 samples.

Results

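Notch genes were followed in the mouse macrophage-like cell line RAW264.7, which derives from an Abelson virus tumour, by taking every gene whose deposited symbol was Notch1, Notch2, Notch3, Notch4, Jag1, Jag2, Dll1, Dll4, Hes1 or Hey1. All 10 symbols were found among the 43629 genes listed. By the study's methods, mRNA was sequenced. There were 3 Control libraries, 3 libraries of cells given lipopolysaccharide (LPS) and 3 libraries of cells given LPS and sodium butyrate (LPS+NaBu). LPS is an endotoxin from the outer membrane of Gram-negative bacteria. Butyrate is a product of gut bacteria and a known inhibitor of histone deacetylases. The study's methods give NaBu before LPS, and NaBu without LPS was not analysed here, so a change with NaBu in unstimulated cells cannot be read from these data. All groups share the cell line, which is a transformed line in culture and not a tissue macrophage. The replicates are called biological, but no source says that they came from separate cultures, so the p-values below measure only the spread between these libraries.

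Notch receptors are single-pass membrane proteins that are activated by ligands of the Jagged and Delta-like families on a neighbouring cell. Ligand binding exposes the receptor to cleavage by ADAM proteases and then by gamma-secretase, which frees an intracellular domain that enters the nucleus, binds the DNA-binding protein RBPJ and recruits Mastermind-like coactivators. Genes of the HES and HEY families, which encode repressors of transcription, are the best known targets. In macrophages Notch signalling has been studied chiefly beside Toll-like receptor signalling. RNA levels report how much transcript of each component was present and not whether a receptor was cleaved.

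Levels are normalised counts, which are gene read counts divided by 1 size factor per library and not by gene length. A gene was called changed at an adjusted p under 0.05 in limma, and changes are given on the log2(normalised count + 1) scale ± standard error. The recovered reads came to between 37.6 M and 64.4 M per library, and each mean is given ± SD with n = 3. Of the 10 Notch genes, 7 had at least 10 normalised counts in at least 3 of the 9 libraries and were tested. Notch3, Hes1 and Hey1 did not reach that level. With LPS against Control, 4 of the 7 were called higher and 2 lower, where 25.2% of the 14808 genes tested were higher, 30.8% lower and 56.1% called in either direction. With LPS+NaBu against LPS, 5 were higher and 1 lower, beside 40.2% higher, 37.8% lower and 78.1% called among all genes tested. With LPS+NaBu against Control, 6 were higher, beside 40.9% higher, 35.1% lower and 76.1% called, and limma called 0 lower. No member was lower in this last comparison at an unadjusted p under 0.05 either, and edgeR and DESeq2 on recovered reads also called 0 lower. The median log2 change of the 7 genes was 0.61, 0.67 and 0.98 in the 3 comparisons, where that of all genes tested was −0.05, 0.02 and 0.09. The medians include Dll1, which had no reads in Control and passed the filter only through treated libraries. Against Control its change lay above the median both as fitted and at the bound given below. Setting it at that bound therefore could not move the medians, and it does not show that they are robust to Dll1. The comparisons share libraries in pairs, and their counts are not independent of each other.

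**Figure D1:**
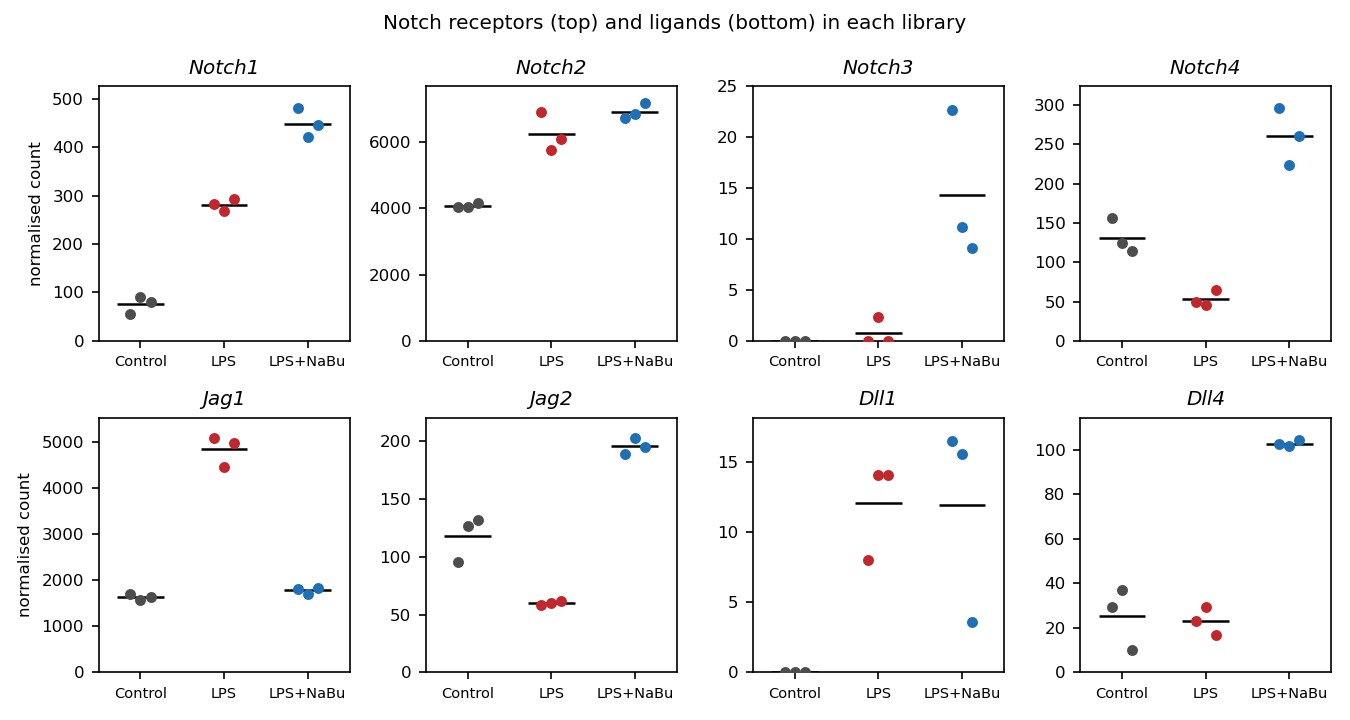
Normalised count (vertical axis, from 0) of the 4 receptor genes in the top row and the 4 ligand genes in the bottom row, with 1 point per library in Control, LPS and LPS+NaBu and a horizontal line at each group's mean. Jag1 is high in the 3 LPS libraries and close to Control in LPS+NaBu, while Notch4 and Jag2 are lowest in the LPS libraries and highest in the LPS+NaBu libraries.

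The receptor genes were all higher in LPS+NaBu than in Control where they could be tested, but they differed in what LPS did. Notch1 (chr2:26347915-26406675 on the minus strand, GRCm39) had 55.7, 90.0 and 80.5 normalised counts in Control, 282, 269 and 294 with LPS, and 480, 420 and 445 with LPS+NaBu. The 3 groups did not overlap and rose in that order. The log2 change was 1.91 ± 0.16 with LPS against Control (3.77-fold, adjusted p = 3.63e-07). It was 0.67 ± 0.16 with LPS+NaBu against LPS (1.59-fold, adjusted p = 0.00199) and 2.58 ± 0.16 against Control (5.99-fold, adjusted p = 7.06e-09).

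Notch2 (chr3:97920800-98057677, plus strand) was the receptor gene with the most reads. It had 4047, 4036 and 4153 normalised counts in Control, 6905, 5764 and 6104 with LPS, and 6737, 6849 and 7177 with LPS+NaBu. Every treated library lay above the Control libraries, whereas the LPS and LPS+NaBu libraries overlapped, since the first LPS library lay above 2 of the LPS+NaBu libraries. Notch2 rose by 0.61 ± 0.06 on the log2 scale with LPS (1.53-fold, adjusted p = 1.38e-06) and was 0.76 ± 0.06 above Control with LPS+NaBu (1.70-fold, adjusted p = 6.63e-08). The further change with LPS+NaBu against LPS was 0.15 ± 0.06 (1.11-fold, adjusted p = 0.0351), and this call was lost in 8 of 20 alternative analyses, in which the adjusted p ranged from 4.96e-05 to 0.533. It was lost without LPS replicate 2 (adjusted p = 0.147), without LPS replicate 3 (0.103), without LPS+NaBu replicate 2 (0.0604) and without LPS+NaBu replicate 3 (0.103).

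Notch4 (chr17:34783220-34807477, plus strand), a receptor known chiefly from endothelial cells, moved the other way with LPS. Its normalised counts were 156, 124 and 115 in Control, 50.1, 45.8 and 65 with LPS, and 296, 224 and 261 with LPS+NaBu. The LPS libraries were the lowest and the LPS+NaBu libraries the highest, with no overlap. Notch4 fell by 1.28 ± 0.19 on the log2 scale with LPS (2.43-fold lower, adjusted p = 5.85e-05). With LPS+NaBu it was 2.27 ± 0.19 above LPS (4.81-fold, adjusted p = 1.02e-07) and 0.98 ± 0.19 above Control (1.98-fold, adjusted p = 3.15e-04).

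Notch3 (chr17:32339794-32385893, minus strand) was listed at 0 in the 3 Control libraries, at 0, 2.35 and 0 normalised counts with LPS, and at 22.7, 11.2 and 9.07 with LPS+NaBu. Every LPS+NaBu library lay above the other 6, but only 2 libraries reached 10 normalised counts. The group means rest on 0, 2 and 53 reads. Against Control the level with LPS+NaBu was at least 5.11-fold higher at a floor of 3 reads per library. Against LPS the ratio was 19.6, with a 95% interval of 5.17 to 166 that covers counting error only and widens to 3.16 to 789 when reads are halved, for the reason given with the processing. With no filter on low values, when 24200 genes were tested, Notch3 was called higher with LPS+NaBu than with LPS (log2 change 3.25, adjusted p = 2.65e-04) and than in Control (3.83, adjusted p = 6.23e-05). The fitted change of a gene at 0 depends on the constant added to the counts.

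Among the ligand genes, Jag1 and Jag2 moved in opposite directions with LPS and again with NaBu. Jag1 (chr2:136923373-136958693, minus strand), which encodes Jagged-1, had 1705, 1574 and 1640 normalised counts in Control, 5096, 4457 and 4991 with LPS, and 1819, 1700 and 1832 with LPS+NaBu. All LPS libraries lay far above the rest, and the Control and LPS+NaBu libraries overlapped. Jag1 rose by 1.56 ± 0.06 on the log2 scale with LPS (2.95-fold, adjusted p = 1.42e-10) and was 2.71-fold lower with LPS+NaBu than with LPS (log2 change −1.44 ± 0.06, adjusted p = 1.14e-10). The difference between LPS+NaBu and Control, 0.12 ± 0.06, was not called (adjusted p = 0.0849), although it was in 3 of 20 alternatives (adjusted p 0.0235 to 0.437). It was the only member called lower with LPS+NaBu than with LPS.

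Jag2 (chr12:112871421-112893437, minus strand), the gene of Jagged-2, had 95.4, 127 and 132 normalised counts in Control, 58.1, 59.9 and 62.1 with LPS, and 189, 203 and 195 with LPS+NaBu. The groups did not overlap, and as with Notch4 the LPS libraries were lowest and the LPS+NaBu libraries highest. Jag2 fell by 0.95 ± 0.16 on the log2 scale with LPS (1.93-fold lower, adjusted p = 2.34e-04). With LPS+NaBu it was 1.69 ± 0.16 above LPS (3.22-fold, adjusted p = 5.05e-07) and 0.74 ± 0.16 above Control (1.67-fold, adjusted p = 0.00102). The last of these was lost under quantile normalization (log2 change 0.27, adjusted p = 0.139, with a range over 20 alternatives of 5.96e-05 to 0.139).

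Dll4 (chr2:119156170-119166443, plus strand), the gene of Delta-like 4, had 29.4, 37.0 and 10.1 normalised counts in Control, 23.1, 29.3 and 16.9 with LPS, and 102, 101 and 104 with LPS+NaBu. The Control and LPS libraries overlapped, while the 3 LPS+NaBu libraries were close together and above all others. The change with LPS against Control was 0.01 ± 0.40 (adjusted p = 0.986). Its sign differed between alternatives, and without Control replicate 3, the lowest library, it was −0.53 (adjusted p = 0.137, with a range over 20 alternatives of 0.137 to 1). With LPS+NaBu the gene was 2.14 ± 0.40 above LPS (4.40-fold, adjusted p = 2.56e-04) and 2.15 ± 0.40 above Control (4.44-fold, adjusted p = 2.60e-04). The lncRNA gene Gm14207 shares 616 exon bases with Dll4 on the opposite strand and stood at 7.13 ± 3.55, 1.88 ± 3.26 and 7.95 ± 2.78 normalised counts in the 3 groups.

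Dll1 (chr17:15587276-15597134, minus strand), the gene of Delta-like 1, was listed at 0 in all 3 Control libraries. It had 8.02, 14.1 and 14.1 normalised counts with LPS and 16.5, 15.6 and 3.63 with LPS+NaBu. Every treated library lay above Control, and the treated groups overlapped. The gene passed the filter only through 4 treated libraries and rests on 0, 30 and 42 reads in the 3 groups, so that its calls against Control, counted above, follow in part from how it was selected. It was called higher than in Control with LPS (adjusted p = 1.52e-04, at least 4.31-fold) and with LPS+NaBu (adjusted p = 1.39e-04, at least 4.25-fold), both bounds at a floor of 3 reads per library. Between the treated groups the log2 change was −0.20 ± 0.59 (adjusted p = 0.763). Dll1 shares 1369 exon bases with Fam120b on the opposite strand, and whether the counting used strand was not stated in the sources read here. Fam120b stood at 2041 ± 59.6, 2224 ± 144 and 3282 ± 160 normalised counts, and in Control no read was assigned to Dll1.

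**Figure D2:**
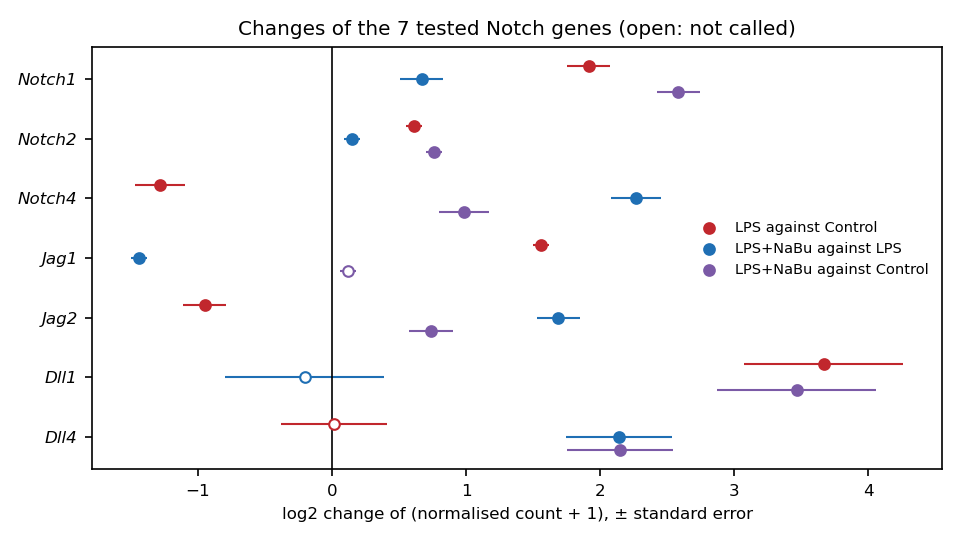
Log2 change of normalised count + 1 (horizontal axis) with its standard error for the 7 tested Notch genes (vertical axis) in LPS against Control (red), LPS+NaBu against LPS (blue) and LPS+NaBu against Control (purple); filled points were called and open points were not. Notch4 and Jag2 lie left of 0 with LPS and right of 0 with LPS+NaBu against LPS, and Jag1 shows the opposite order.

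The promoters of Notch4 and Jag2, which both fell with LPS and rose with NaBu, are shown beside that of Jag1, which did the reverse, so that the sequence upstream of each start can be compared. Each is the 250 bases before the start of the gene's canonical GENCODE transcript in the reference genome GRCm39, written 5′ to 3′ on the gene's strand. The genome of RAW264.7 cells may differ from it. Capitals mark matches to the NF-kB consensus or to the RBPJ core TGGGAA, searched on both strands. The windows are chr17:34782970-34783219 (plus strand) for Notch4, chr12:112893438-112893687 (minus strand) for Jag2 and chr2:136958694-136958943 (minus strand) for Jag1.
Notch4: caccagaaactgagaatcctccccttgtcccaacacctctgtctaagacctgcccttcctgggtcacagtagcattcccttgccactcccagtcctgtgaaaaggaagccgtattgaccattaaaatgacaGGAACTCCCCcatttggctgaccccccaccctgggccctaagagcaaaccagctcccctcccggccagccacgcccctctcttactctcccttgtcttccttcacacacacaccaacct
Jag2: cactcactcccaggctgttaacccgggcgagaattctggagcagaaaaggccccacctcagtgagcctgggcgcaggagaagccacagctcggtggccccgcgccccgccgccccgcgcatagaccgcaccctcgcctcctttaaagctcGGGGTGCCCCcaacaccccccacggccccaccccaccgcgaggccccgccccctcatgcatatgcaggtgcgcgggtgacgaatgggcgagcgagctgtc
Jag1: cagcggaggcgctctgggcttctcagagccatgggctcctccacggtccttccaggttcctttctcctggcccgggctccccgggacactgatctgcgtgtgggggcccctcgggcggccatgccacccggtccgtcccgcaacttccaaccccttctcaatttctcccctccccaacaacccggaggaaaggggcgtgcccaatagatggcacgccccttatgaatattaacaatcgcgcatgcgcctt
An NF-kB consensus match began 119 bases before the start of Notch4 and 100 bases before that of Jag2, where the match reads the same on both strands by the consensus and counts as 1. The Jag1 window held none. Such a match occurred in 7.63% of 21757 promoters of this length, which were not matched for GC content. The Notch4 window held 0 GC boxes (GGGCGG, either strand), the Jag2 window 2 and the Jag1 window 1, where 36.3% of all promoters held at least 1. The GC content was 56% for Notch4, 69.6% for Jag2 and 63.6% for Jag1, against a median of 53.2% over all promoters. In these 3 windows no 2 matches overlapped. A match describes the letters only and is not evidence of binding, and the absence of one says nothing of binding elsewhere. Of the other members, Notch2 and Dll4 each had 1 NF-kB consensus match, that of Dll4 overlapping a GC box. With LPS against Control Notch2 was called higher and Dll4 was not called, so the members with a match did not share a direction.

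Per kilobase of canonical transcript, which allows levels of different genes to be set side by side, Notch2 dominated the receptors and Jag1 the ligands in every group. Notch2 made up 93.3% ± 0.504, 94.0% ± 0.603 and 88.1% ± 1.27 of the summed receptor level in the Control, LPS and LPS+NaBu groups. Notch1 made up 1.92% ± 0.454, 4.72% ± 0.376 and 6.36% ± 0.444, and Notch4 4.80% ± 0.812, 1.29% ± 0.260 and 5.29% ± 0.727. Behind Notch2 the order was thus Notch4 before Notch1 in Control and Notch1 before Notch4 with LPS. With LPS+NaBu the mean share of Notch1 was above that of Notch4. Per kilobase of the union of exons these LPS+NaBu shares were closer, at 4.66% ± 0.339 for Notch1 and 4.35% ± 0.610 for Notch4. The summed receptor level was 414 ± 4.50, 631 ± 55.8 and 744 ± 20.6 normalised counts per kilobase. Among the ligands Jag1 held 90.6% ± 1.55, 97.6% ± 0.386 and 82.1% ± 1.01 of a sum of 315 ± 7.48, 865 ± 57.9 and 378 ± 10.9. Jag2 held 7.28% ± 1.352, 1.349% ± 0.105 and 10.03% ± 0.640, and Dll4 2.11% ± 1.17, 0.705% ± 0.233 and 7.08% ± 0.144. These shares are descriptions of RNA levels and carry no test.

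**Figure D3:**
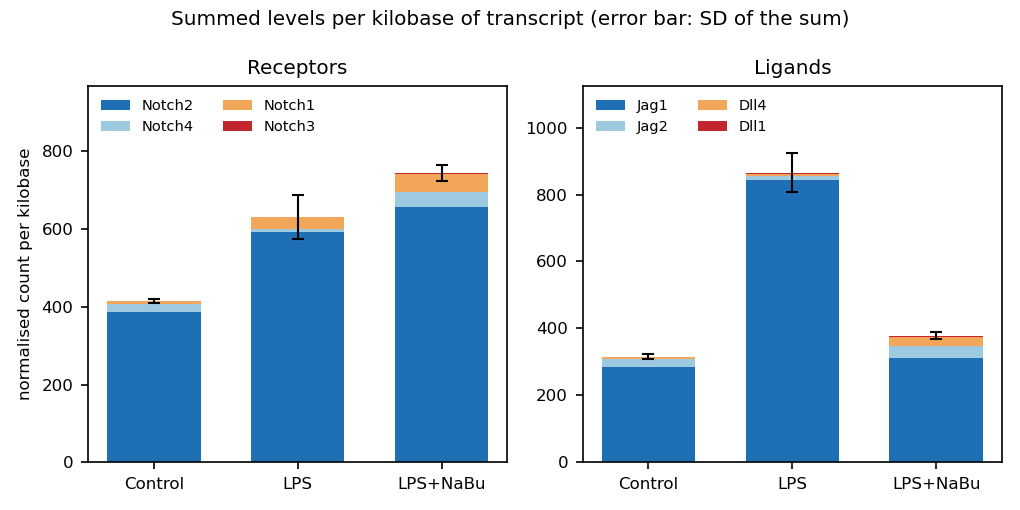
Normalised count per kilobase of canonical transcript (vertical axis, from 0), stacked by gene, for the receptors (left) and ligands (right) in Control, LPS and LPS+NaBu; bars are means of 3 libraries and error bars the SD of the sum. Notch2 and Jag1 fill most of each bar, and the ligand sum is highest with LPS at 865.

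The target genes Hes1 and Hey1 were at the limit of detection in all groups. Hes1 (chr16:29882134-29886643, plus strand), which encodes a basic helix-loop-helix repressor, had 2.39, 0 and 3.02 normalised counts in Control, 2.01, 2.35 and 2.82 with LPS, and 1.38, 4.46 and 1.81 with LPS+NaBu. The groups overlapped, and the values rest on 6, 6 and 8 reads. Hey1 (chr3:8726956-8732385, minus strand) was listed at 0 in all 9 libraries, which at 3 reads per library allows levels of up to 2.06 to 4.24 normalised counts. No rise of either gene to the levels that Notch3 reached with LPS+NaBu was seen, and a fall or a small change could not be detected at this depth. The Hes1 promoter (chr16:29883877-29884126, plus strand) is shown as that of a known Notch target. Capitals mark matches to the RBPJ core TGGGAA only.
Hes1: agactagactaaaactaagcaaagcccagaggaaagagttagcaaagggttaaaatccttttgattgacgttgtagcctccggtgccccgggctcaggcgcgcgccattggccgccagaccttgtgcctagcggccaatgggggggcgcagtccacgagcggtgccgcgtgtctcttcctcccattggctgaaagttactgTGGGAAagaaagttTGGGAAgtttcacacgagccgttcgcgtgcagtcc
The cores began 49 and 35 bases before the start, both on the gene's strand. Other forms of an RBPJ site were not searched for and would stand in lower case. A core on either strand was present in 22.7% of the 21757 promoters, and of the other members only Hey1 had one, 175 bases before its start.

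Other HES and HEY genes were read from a list of 7. Hes6, which encodes an atypical HES protein, had 623, 621 and 661 normalised counts in Control, 513, 589 and 458 with LPS, and 1193, 1092 and 1039 with LPS+NaBu, and it was 1.09 ± 0.09 above LPS on the log2 scale (adjusted p = 1.67e-07). Hes7, known from the segmentation clock, had 11.1, 8.0 and 12.1 in Control, 4.01, 4.69 and 11.3 with LPS, and 122, 97.0 and 76.2 with LPS+NaBu (log2 change against LPS 3.79 ± 0.38, adjusted p = 9.18e-07). In both genes the LPS+NaBu libraries lay above all others. Hes2 and Hey2 passed the filter only through the LPS+NaBu libraries, where they were high, so their calls there are no independent support. Hes2 had 3.18, 6.0 and 2.01 normalised counts in Control, 0, 2.35 and 0 with LPS, and 61.9, 56.9 and 91.6 with LPS+NaBu, a ratio to LPS of 89.6 (95% interval of counting error 24.5 to 744, or 15.8 to 3568 with halved reads). Hey2 was at 0 in Control, at 0, 0 and 2.82 with LPS and at 13.8, 20.1 and 44.4 with LPS+NaBu, at least 9.31-fold above Control. Hes3, which was not tested, had 2, 0 and 54 reads in the 3 groups. Hes5 was listed at 0 in 8 libraries and Heyl in all 9.

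**Figure D4:**
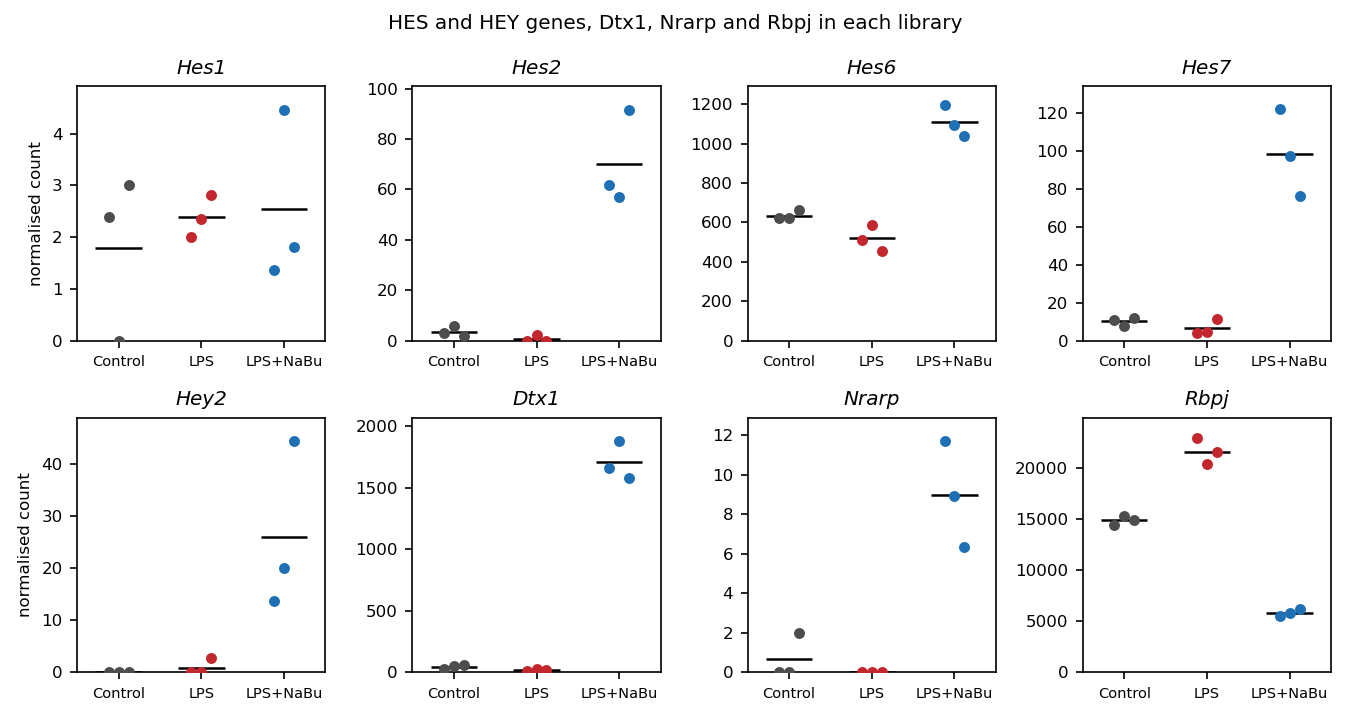
Normalised count (vertical axis, from 0, with its own scale in each panel) of Hes1, Hes2, Hes6, Hes7, Hey2, Dtx1, Nrarp and Rbpj, with 1 point per library in Control, LPS and LPS+NaBu and a line at each mean. Hes1 stays below 5 in every library, Dtx1 reaches 1576 to 1878 with LPS+NaBu, and Rbpj is highest with LPS and lowest with LPS+NaBu.

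The rest of the pathway was read from a list of 61 genes, 55 of which were tested. With LPS against Control 19 were called higher, 19 lower and 17 neither. With LPS+NaBu against LPS the counts were 26, 27 and 2, and with LPS+NaBu against Control 25, 27 and 3. These shares stand beside the background shares of 25.2% and 30.8%, 40.2% and 37.8%, and 40.9% and 35.1% given above. When each library was scaled to the same sum, 13 were higher and 30 lower with LPS, beside 15.3% higher and 47.9% lower among all genes under that scaling. The same scaling moved the shares of all genes to 50.25% higher and 27.9% lower with LPS+NaBu against LPS.

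RBPJ and most of its coactivators were lower with LPS+NaBu than with LPS. Of these 9 genes, 8 were lower and 1 was higher, beside 37.8% lower and 40.2% higher among all genes tested, with a median log2 change of −0.84 where all genes tested had 0.02. Rbpj had 14394, 15269 and 14941 normalised counts in Control, 22889, 20353 and 21553 with LPS, and 5562, 5773 and 6160 with LPS+NaBu. The groups did not overlap. Rbpj rose by 0.54 ± 0.05 on the log2 scale with LPS (1.45-fold, adjusted p = 1.60e-06) and was 3.70-fold lower with LPS+NaBu than with LPS (log2 change −1.89 ± 0.05, adjusted p = 2.40e-12). It was also 2.55-fold below Control (log2 change −1.35 ± 0.05, adjusted p = 6.46e-11). Processed pseudogenes of Rbpj exist, and reads that match them could be divided. The acetyltransferase gene Kat2b fell from 2367 ± 338 with LPS to 391 ± 67.4 (log2 change −2.60 ± 0.12, adjusted p = 3.48e-10), and Maml1, a Mastermind-like coactivator, from 2177 ± 191 to 842 ± 30.3 (−1.37 ± 0.08, adjusted p = 4.68e-09). The exception was Maml3, which went from 14.7 ± 1.12 to 40.5 ± 5.75 (1.39 ± 0.30, adjusted p = 9.39e-04). With LPS against Control 5 of the 9 were higher and 1 lower, beside 25.2% and 30.8% of all genes.

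Of the genes that end or tune receptor signalling, Dtx1 had the largest fitted change. Dtx1, which encodes the ubiquitin ligase Deltex-1 and is itself a known Notch target, had 28.6, 52.0 and 56.3 normalised counts in Control, 12.0, 28.2 and 16.9 with LPS, and 1662, 1878 and 1576 with LPS+NaBu. The LPS libraries lay below Control and the LPS+NaBu libraries far above both. The log2 change with LPS+NaBu was 6.49 ± 0.29 against LPS (89.7-fold, adjusted p = 2.40e-10) and 5.25 ± 0.29 against Control (38.0-fold, adjusted p = 2.30e-09). The related gene Dtx3l went from 858 ± 31.6 in Control to 6080 ± 563 with LPS (log2 change 2.82 ± 0.07, adjusted p = 2.27e-12) and to 1150 ± 74.1 with LPS+NaBu (−2.40 ± 0.07 against LPS, adjusted p = 5.30e-12). Nrarp, another known Notch target, was not tested and had 2, 0 and 32 reads in the 3 groups, at least 2.504-fold higher with LPS+NaBu than with LPS. In all, 5 of the 9 tested genes of turnover and feedback exceeded their LPS level in LPS+NaBu and 3 were lower, beside 40.2% and 37.8% of all genes.

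Of the 10 genes of enzymes that cut the receptor, 5 were higher and 4 lower with LPS against Control, beside 25.2% and 30.8% of all genes. With LPS+NaBu against LPS 4 were higher and 5 lower (40% and 50%), beside 40.2% and 37.8% of all genes. Furin, which cleaves the receptor during its maturation, rose from 3225 ± 58.3 in Control to 12489 ± 609 with LPS (log2 change 1.95 ± 0.05, adjusted p = 1.25e-12). Aph1c, a gamma-secretase subunit gene, fell from 896 ± 26.2 to 187 ± 6.37 with LPS (−2.25 ± 0.07, adjusted p = 1.54e-11) and stood at 1270 ± 4.87 with LPS+NaBu (2.76 ± 0.07 against LPS, adjusted p = 1.14e-12). Aph1b and Aph1c are close paralogs between which the counting could divide reads. Nicastrin, a further gamma-secretase subunit encoded by Ncstn, moved the other way with NaBu, from 5195 ± 140 with LPS to 1629 ± 39.7 (−1.67 ± 0.05, adjusted p = 2.12e-12).

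Changes were also found around the ligands and in receptor sugars. The ubiquitin ligase genes Neurl1a and Neurl1b, whose products act on ligands, fell with LPS by 1.69 ± 0.21 and 2.13 ± 0.06 on the log2 scale (adjusted p = 1.19e-05 and 5.98e-12). With LPS+NaBu both stood above their LPS level, Neurl1a by 3.71 ± 0.21 (13.1-fold, adjusted p = 1.77e-09) and Neurl1b by 0.999 ± 0.06 (adjusted p = 4.47e-09). Against Control Neurl1a was then 4.08-fold higher (adjusted p = 9.54e-07) and Neurl1b 2.19-fold lower (adjusted p = 1.46e-09). Dner, a noncanonical ligand gene, was 6.42-fold lower with LPS+NaBu than with LPS (log2 change −2.68 ± 0.10, adjusted p = 2.22e-11), at 311 ± 47.2 against 1989 ± 65.6 normalised counts. Dlk2, of the same list, was at 0 in all 3 LPS libraries and at 21.3, 17.8 and 14.5 with LPS+NaBu, at least 4.99-fold higher. It passed the filter through the 3 LPS+NaBu libraries and 1 Control library, so its call with LPS+NaBu is no independent support. It rests on 16 reads in Control, where its fall with LPS (adjusted p = 0.00343) was lost in 1 of 19 alternatives. Lfng, a fringe glycosyltransferase that alters which ligands a receptor answers to, was at 1354 ± 31.5 in Control, at 896 ± 35.1 after LPS and at 314 ± 39.1 after LPS+NaBu (log2 change against Control −2.11 ± 0.09, adjusted p = 1.42e-10). Among the 12 corepressor genes 6 were higher and 6 lower with LPS+NaBu than with LPS (50% each), beside 40.2% and 37.8% of all genes. They included Tle2, which went from 10.7 ± 7.55 to 228 ± 21.9 (4.61 ± 0.50, adjusted p = 1.89e-06), and Ctbp1, which was 1.91 ± 0.05 below Control on the log2 scale (3.76-fold lower, adjusted p = 6.14e-13).

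**Figure D5:**
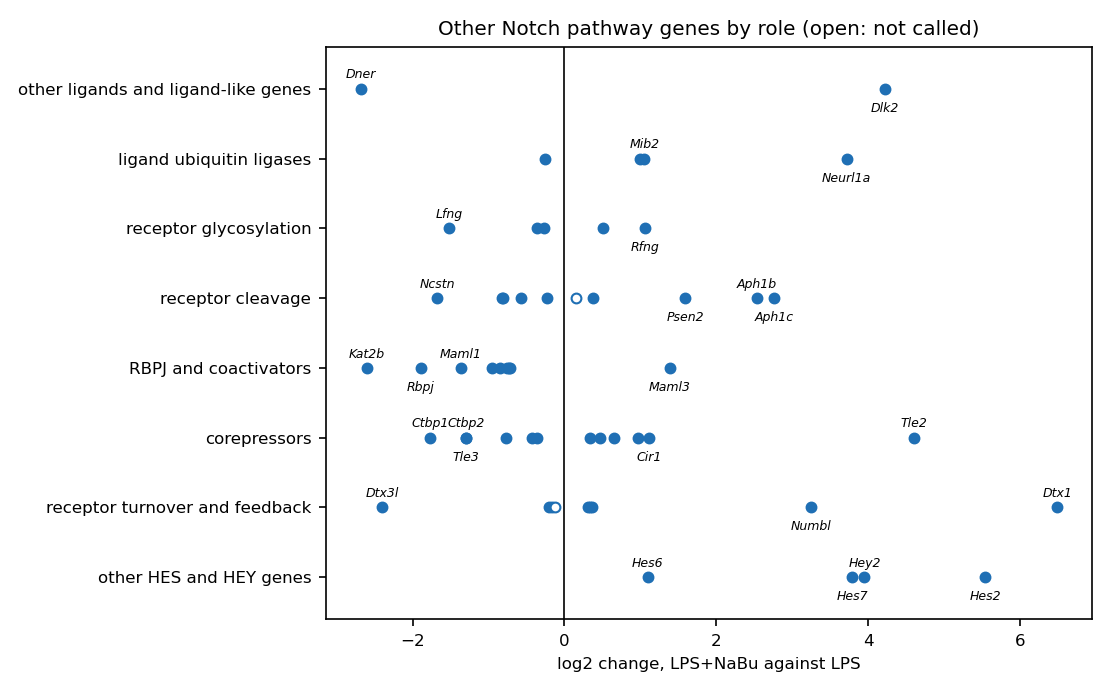
Log2 change with LPS+NaBu against LPS (horizontal axis) of the 55 tested genes of the pathway list, 1 point per gene in rows by role; filled points were called, open points were not, and genes that moved by at least 1 are named. In the row of RBPJ and coactivators 8 of 9 points lie left of 0, and Dtx1 lies farthest right at 6.49.

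The genes whose levels followed the most abundant receptor and ligand most closely were found by Pearson correlation of log2 values over the 9 libraries, which share 3 group levels. For Notch2 they were Trim56 (r = 0.997), Map4k4 (0.995) and Cpeb4 (0.995), and 1.79% of 14807 genes had an r of at least 0.95. For Jag1 they were Msn (0.998), Pnpt1 (0.998) and Ets2 (0.997), with 2.55% of genes at that level. With 3 groups many genes share any given order, and the values are descriptions only.

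Markers of cell identity moved with NaBu beside the Notch genes. All 10 macrophage markers were detected in every group. Their summed normalised counts were 474322 to 491935 in the Control group, 656278 to 693145 in the LPS group and 219494 to 237611 in the LPS+NaBu group. With LPS against Control 7 were higher and 1 lower, beside 25.2% higher and 30.8% lower among all genes tested. With LPS+NaBu all 10 were lower than with LPS, beside 37.8% lower and 40.2% higher among all genes. Against Control 9 were then lower and 1 higher, beside 35.1% and 40.9% of all genes. The shares of 40.2% higher and 37.8% lower also stand beside the counts of the other markers below, with LPS+NaBu against LPS. Of 6 fibroblast markers 3 were tested and all 3 exceeded their LPS level in LPS+NaBu, although they passed the filter only through the LPS+NaBu libraries, where they were high, and the list summed to 6.36 to 12.1, 13.0 to 18.8 and 254 to 271 in the 3 groups, while Col3a1 and Dcn stood at 0 in most libraries. The 8 endothelial markers summed to 1875 to 2013, 962 to 1022 and 1141 to 1245, mostly from Vwf, with Sox17 at 0 throughout, and 2 of the 4 tested exceeded their LPS level in LPS+NaBu. Of 5 epithelial markers none was tested, and their sum did not exceed 13.1. The 6 T cell markers summed to 11.1 to 21.1, 8.47 to 17.0 and 206 to 289, mostly from Tcf7, with 1 of 2 tested, Tcf7, higher with LPS+NaBu than with LPS after passing the filter only through those libraries, and Cd3e, Cd3g and Cd8a at 0 in most libraries. The 5 B cell markers summed to 5.57 to 20, 74.9 to 104 and 46.3 to 56.4, with 2 higher and 1 lower of 3 tested and Ms4a1 at 0. Of the 2 that were higher, Cd79a passed the filter only and Cd79b chiefly through the LPS+NaBu libraries. The 1 that was lower, Pax5, passed it chiefly through the LPS libraries, where it was high. The calls of these genes are therefore no independent support. The 5 neutrophil markers summed to 18.1 to 23.9, 96.2 to 112 and 35.1 to 44.4, with 1 lower of 1 tested and S100a9 at 0. The part of any of these in the changes of the Notch genes was not tested. By their labels all libraries are of the RAW264.7 line, so the lists were not read as amounts of other cell types. In bulk RNA, a large change in some cells and a smaller change in all cells cannot be told apart.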

How the data were processed

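RNA of 9 RAW264.7 libraries was analysed, grouped by the treatment in their labels. By the study's methods, reads from a directional kit were trimmed with Trimmomatic, aligned with HISAT2, counted with featureCounts and tested with limma. The processing notes of the submitters list instead STAR 2.7.7a with DESeq2 on mm39 (the same build as GRCm39). Which aligner made the deposited values cannot be told, and whether the counting used strand was not stated in the sources read here. The deposited signal is named FPKM, but the authors' values are gene counts divided by 1 size factor per library: 100% of values were whole multiples of 1 read within 0.001. In 3 libraries that step lay within 1% of 1, where the check says little. They are called normalised counts. Reads recovered this way numbered 37.6 to 64.4 M. The unit differed from the FPKM planned for, and the planned log scale test was kept.

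The 14808 genes with at least 10 normalised counts in at least 3 of 9 libraries were tested on log2(normalised count + 1) in limma 3.58.1 (R 4.3.3), as 3 group means fitted to all libraries at once, with an intensity trend, two-sided tests and Benjamini-Hochberg adjustment. Calls required an adjusted p under 0.05. Among genes with 1 to 20 reads, 68.1% to 72.5% per library had an even number, so reads are not independent and intervals were also computed on halved reads. A gene at 0 in a group was bounded at 3 reads per library, and bounds and 95% intervals cover counting error only. Coordinates, lengths and promoters are of GENCODE M39, on GRCm39, numbered from 1, with 38984 of 43629 identifiers (89.35%) matched. The members and gene lists were chosen with earlier results of these data known. By the naming rule, the other pathway genes described were, per comparison, the 4 that rose most and the 4 that fell most among those called with a log2 change of at least 1. Maml1, Maml3, Ncstn, the HES and HEY genes, Nrarp, the changes of Neurl1a and Neurl1b with NaBu, and Rbpj in the comparisons with Control were added after their values were seen. The change of Aph1c with LPS+NaBu against LPS also lies outside the naming rule. Alternatives were other scalings, added constants and filters, edgeR 4.0.16 and DESeq2 1.42.0 on recovered reads, no trend, only the groups compared, a replicate block and each of 9 libraries left out. The limma step was tested on simulated data.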

Additional observations from a re-analysis of the deposited data

How the results depend on the processing

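Of the 21 tested comparisons of a Notch gene, 16 had the same direction and call in every one of 20 alternatives (19 for Dll1, which a minimum of 50 normalised counts removed). Scaling each library to the same sum moved the median change of all genes by −0.22 with LPS against Control, 0.28 with LPS+NaBu against LPS and 0.05 with LPS+NaBu against Control; quantile normalization moved the last by −0.16 and edgeR that of LPS+NaBu against LPS by −0.11. The change of Dll4 with LPS against Control, 0.01 and not called, reversed to −0.20 at the same sum, −0.069 with quantile normalization, −0.028 with 10 added to the counts, −0.10 in edgeR, −0.14 in DESeq2, −0.53 without Control replicate 3, −0.0028 without LPS replicate 1 and −0.17 without LPS replicate 2, within a range of −0.53 to 0.36 without 1 library. That of Dll1 with LPS+NaBu against LPS, −0.20 and not called, reversed to 0.045 at the same sum and 0.42 without LPS+NaBu replicate 3, within a range of −0.54 to 0.42 without 1 library. The cause was not tested.

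The call of Notch2 with LPS+NaBu against LPS was also lost with no filter (adjusted p = 0.0509), in edgeR (0.533), without the trend (0.0841) and with only the groups compared (0.0654). Without 1 library its log2 change ran from 0.09 to 0.22. Jag1 with LPS+NaBu against Control was called at the same sum (adjusted p = 0.0254), with quantile normalization (0.0235) and without LPS replicate 2 (0.0442). Of 240 recomputed counts of calls 239 stayed within 1.5 times their value, the exception being the 30 pathway genes lower with LPS at the same sum, against 19. Of 59 comparisons of other pathway genes 56 kept direction and call in every alternative. Hes2 with LPS against Control (adjusted p 0.00312 to 0.201), and Dlk2 with LPS (0.00145 to 0.0530) and with LPS+NaBu against Control (0.00214 to 0.179) did not. The 8 lower genes of RBPJ and its coactivators with LPS+NaBu against LPS numbered 8 in every alternative.

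The replicate numbers did not show a pairing of the samples. Deviations from group means over 10863 genes correlated between −0.23 and 0.176 for same-numbered libraries, with 1 of 9 pairs over 0.1. For libraries of other numbers they correlated between −0.36 and 0.322, with 6 of 18 pairs over 0.1. A structure shared between groups under other numbers was not modelled. With the replicate number as a block, 4 Notch genes were called higher and 2 lower with LPS against Control, 5 higher and 1 lower with LPS+NaBu against LPS, and 6 higher and 0 lower with LPS+NaBu against Control, and the block changed no other count.

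Depth limits what can be said of Notch3, Dll1, Hes1 and Hey1, which have at most 53 reads in any group.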
